A study of Mus musculus with 12 samples.

Results

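The 10 genes described here trace the skeletal muscle lineage of the mouse limb bud, from migrating progenitors to the first contractile fibres. They are Pax3, Pax7, Lbx1, Met, Myf5, Myod1, Myog, Acta1, Actc1 and Myh3. They were chosen by name for their roles, with earlier results of these data known. All 10 were found among the 54532 genes of the table. They were measured by RNA sequencing in limb buds at E12.5. In the conditional knockout (cKO) the genotype is labelled Mettl14 flox/flox, and in the control (cHet) it is labelled Mettl14 wt/flox, so both genotypes carry a floxed allele. The Mettl14 protein is part of the methyltransferase that places N6-methyladenosine on RNA. Each genotype has 3 libraries of polysome RNA, taken from the gradient fractions of mRNAs that carry ribosomes, and 3 libraries of input RNA, the cytoplasmic lysate before the gradient. The Cre driver, the limb cells in which it acts and the number of embryos in each sample are not given in the sources used here. The labels call the 3 libraries of a group biological replicates, and p-values set differences against the spread between replicates. The fits that compare polysome with input pooled this spread over all 4 groups. They did not pair libraries by lysate unless a block is named.

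Limb muscle does not arise from limb mesenchyme. Its progenitors leave the somites and migrate into the bud, a step that needs the transcription factors Pax3 and Lbx1 and the receptor tyrosine kinase Met, whose ligand is made by the limb mesenchyme. In the bud, Myf5 and Myod1 commit these cells to the myoblast fate, Myog drives their differentiation, and the fused fibres then make embryonic actins and myosins. The levels of these mRNAs in a whole limb bud depend on how many such cells it holds and on the RNA in each cell, and in bulk samples fewer cells and less RNA per cell cannot be told apart.

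The proximal promoters of 4 members are shown as background, those of Acta1, Actc1, Myh3 and Myog. These genes were picked with their results between fractions known, and a link between promoter motifs and the polysome to input difference was not tested. Each holds the 250 bases before the RefSeq start of the GRCm38.p6 assembly, 5′ to 3′ on the strand of the gene. Capitals mark the E box, CANNTG, the site that myogenic factors bind, and the CArG box, the site of serum response factor. Both strands were searched, and no marked motifs overlap one another.
Acta1: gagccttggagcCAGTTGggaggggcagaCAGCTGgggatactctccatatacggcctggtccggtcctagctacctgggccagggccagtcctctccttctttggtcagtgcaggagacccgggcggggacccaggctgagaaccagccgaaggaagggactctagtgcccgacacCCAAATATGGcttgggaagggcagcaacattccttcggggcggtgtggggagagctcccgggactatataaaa
Actc1: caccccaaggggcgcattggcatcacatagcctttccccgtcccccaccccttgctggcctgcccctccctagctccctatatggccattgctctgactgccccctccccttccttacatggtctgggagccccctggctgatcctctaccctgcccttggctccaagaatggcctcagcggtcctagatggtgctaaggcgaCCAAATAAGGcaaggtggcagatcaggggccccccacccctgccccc
Myh3: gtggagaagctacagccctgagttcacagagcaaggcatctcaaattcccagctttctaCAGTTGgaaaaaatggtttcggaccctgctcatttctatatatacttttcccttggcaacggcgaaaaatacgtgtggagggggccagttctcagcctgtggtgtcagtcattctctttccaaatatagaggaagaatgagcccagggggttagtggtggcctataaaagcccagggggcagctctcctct
Myog: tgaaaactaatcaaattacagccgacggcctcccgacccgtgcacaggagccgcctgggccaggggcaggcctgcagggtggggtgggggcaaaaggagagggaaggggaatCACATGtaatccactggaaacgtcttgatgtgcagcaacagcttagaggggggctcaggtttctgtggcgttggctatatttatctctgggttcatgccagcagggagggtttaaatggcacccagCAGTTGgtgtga
The Acta1 window (chr8:123894776-123895025, minus strand) held 2 E boxes, 238 and 221 bases before the start, and 1 CArG box at 73 bases. The Actc1 window (chr2:114052876-114053125, minus strand) held 1 CArG box at 47 bases and no E box. That RefSeq start lies inside the longer Actc1 gene model of the deposited table. The Myh3 window (chr11:67078050-67078299, plus strand) held 1 E box at 191 bases. The Myog window (chr1:134289754-134290003, plus strand) held 2 E boxes, at 138 and 12 bases. Of 32851 promoters of the same length, 66.2% held an E box and 1.47% a CArG box, so an E box is common and a CArG box is not. The MEF2 site, another muscle motif, was searched as YTAWWWWTAR. Here Y is C or T, W is A or T, and R is A or G. That exact pattern was held by 2.92% of all promoters. It was not matched in any of the 7 member promoters that the RefSeq table holds. Runs differing from it only in the last base, such as ctatatttat in the Myog window and ctatatatac in the Myh3 window, were not counted. The other 3 of these 7 were those of Met, with 1 E box, and of Pax7 and Myf5, with none of these motifs. A match is a run of letters and not a measured binding site.

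The libraries held 10349912 to 30068823 assigned reads, and 1 read in a gene model of 1 kb was worth 0.0320 to 0.0930 FPKM. Mettl14 itself had 2.73, 2.81 and 3.29 FPKM on polysomes labelled cKO, against 2.83, 3.07 and 3.02 FPKM on cHet polysomes. In input it had 2.60, 3.32 and 1.26 FPKM in the libraries labelled cKO, against 4.09, 4.03 and 4.04 FPKM in cHet. The cKO input libraries lay below all cHet input libraries, while the polysome groups overlapped. By limma the log2 difference of Mettl14 was −0.02 on polysomes (SE 0.14, adjusted p = 0.954) and −0.83 in input (SE 0.32, adjusted p = 0.295), so the floxed gene did not pass the test in either fraction. These values cover the whole gene model, and the deleted exons are not given in the sources used here. A pair of libraries stood apart in a principal component analysis. The cKO polysome replicate 1 lay at 3.97 on the first component, where the other polysome libraries lay at 35.5 to 53.8, and the cKO input replicate 3 lay at −63 on the second, where the other input libraries lay at 0.493 to 22.5. The cKO polysome to input values of Pax7, Met, Acta1, Actc1 and Myh3 are given with and without them.

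The myogenic programme was present in every library, and its levels ran from under 1 FPKM for the earliest progenitor gene to 307 FPKM for a fibre actin. FPKM is scaled by gene length, so levels can be set side by side between genes. Actc1 was the most abundant member in all 4 groups and Pax3 the least. Myog, Acta1 and Myod1 followed Actc1, then came Myh3 and Lbx1, then Myf5 and Met, then Pax7. Several neighbours in this order overlapped in their libraries. These were Acta1 and Myod1 on polysomes of both genotypes, Myh3 and Lbx1 on cHet polysomes, Myf5 and Met in all groups but cHet polysomes, Met and Pax7 on cHet polysomes, and Acta1 and Myog in cKO input. The cell type label was checked against markers of another striated muscle, since Actc1 is also the main actin of the heart. All 8 heart markers, Nppa and Myl7 among them, were under 1 FPKM in every library, with the highest single value at 0.946 FPKM, and Nppa, the gene of atrial natriuretic peptide, was at 0 in all 12.

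**Figure D1:**
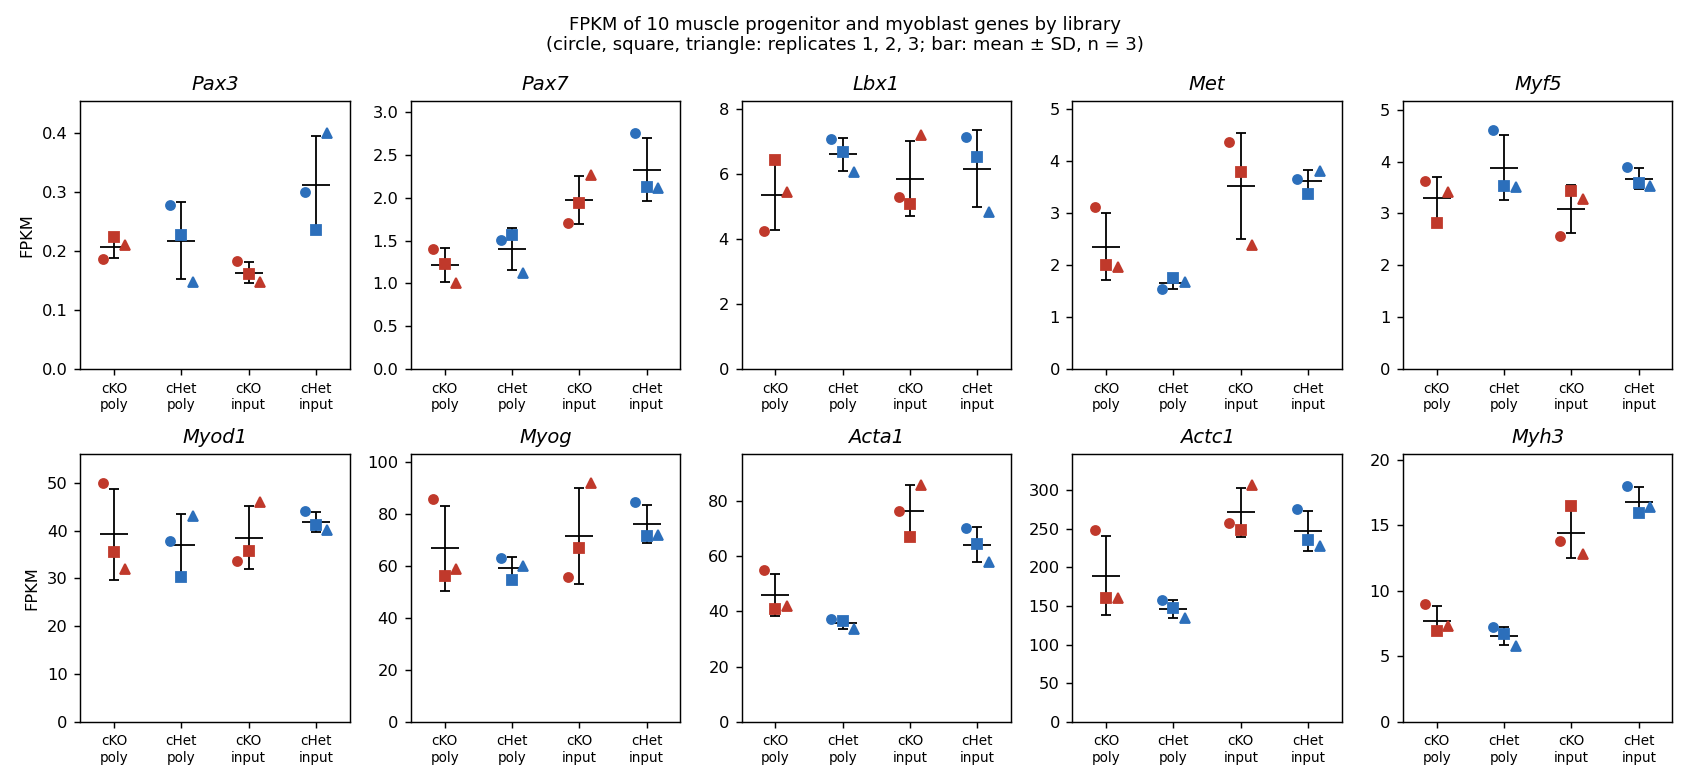
FPKM of the 10 genes in each library of cKO polysomes, cHet polysomes, cKO input and cHet input; symbols are replicates, and bars are the mean ± SD of 3 libraries. Acta1, Actc1 and Myh3 lie lower on polysomes than in input in both genotypes, with Acta1 at 46.0 and 35.7 FPKM on cKO and cHet polysomes against 76.4 and 64.2 FPKM in cKO and cHet input.

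Between fractions, the fibre genes and part of the progenitor genes were lower on polysomes than in input, and the myogenic transcription factors did not pass the test. In cKO limb buds Pax7, Acta1, Actc1 and Myh3 fell, by 0.54 to 0.89 on the log2 scale, and in cHet limb buds Pax7, Met, Acta1, Actc1 and Myh3 fell, by 0.70 to 1.35. No member rose in either genotype, beside 16.9% of tested genes in cKO and 27.3% in cHet. A gene was tested if it reached 1 FPKM in at least 3 libraries, which 9 of the 10 members did, Pax3 being the exception, and it passed at a Benjamini-Hochberg adjusted p under 0.05 over all genes tested by limma on log2(FPKM + 0.1). The 4 of 9 members that fell in cKO stand beside 15.6% of 13610 tested genes that fell and 32.5% that passed in either direction. Leaving out replicate 2 of cKO input, replicate 2 of cKO polysomes or replicate 3 of cKO polysomes left 2 of 9 in cKO. The 5 of 9 that fell in cHet stand beside 25.9% that fell and 53.2% that passed in either direction. The median log2 difference of the 9 members was −0.54 in cKO and −0.70 in cHet, where that of all tested genes was 0.06 in cKO and 0.02 in cHet.

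**Figure D2:**
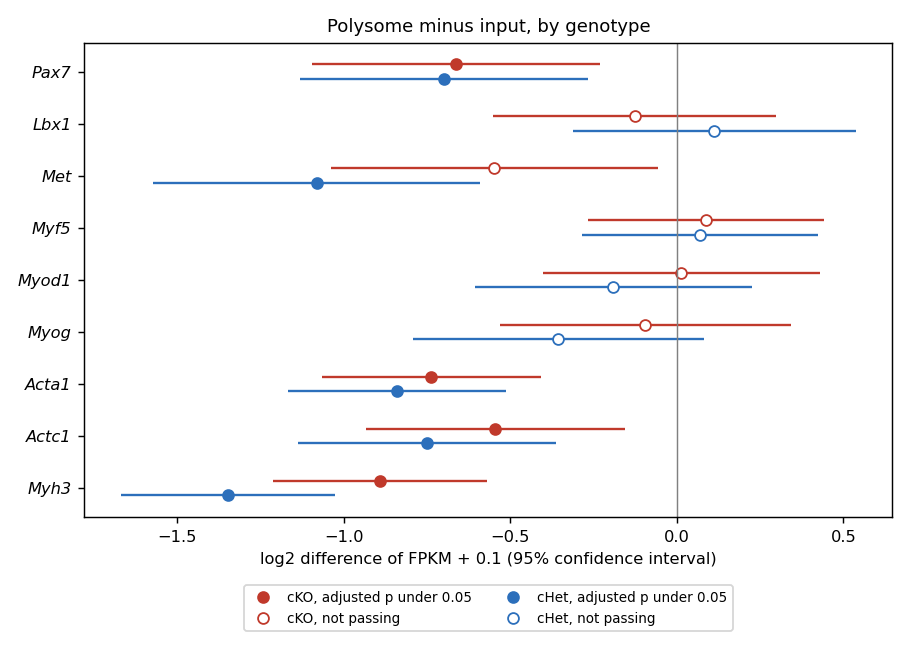
Log2 difference of FPKM + 0.1, polysome minus input, for the 9 tested genes in cKO (red) and cHet (blue) limb buds, with 95% confidence intervals; filled points passed an adjusted p of 0.05. Myh3 has the lowest value in both genotypes, −0.89 in cKO and −1.35 in cHet, and the 4 transcription factors Lbx1, Myf5, Myod1 and Myog have intervals that cover 0.

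Among the progenitor genes, Pax3, a paired-box factor that switches on Met and is needed for migration, was low in every library (ENSMUSG00000004872; mm10 chromosome 1, 78101267 to 78197134, minus strand). It had 0.186, 0.223 and 0.210 FPKM on cKO polysomes and 0.277, 0.226 and 0.148 FPKM on cHet polysomes. In input it had 0.182, 0.160 and 0.147 FPKM in cKO, against 0.300, 0.235 and 0.400 FPKM in cHet. The polysome groups overlapped and the cKO input libraries lay below the cHet input libraries, on 15 to 71 reads per library. Without the filter on low values, the input difference between cKO and cHet was a log2 of −0.63 (limma, SE 0.25, adjusted p = 0.475), which did not pass.

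Pax7, the paired-box factor that marks the progenitors kept in reserve for later growth, fell on polysomes in both genotypes (ENSMUSG00000028736; mm10 chromosome 4, 139737062 to 139833528, minus strand). In cKO it had 1.40, 1.22 and 1.00 FPKM on polysomes, against 1.71, 1.94 and 2.26 FPKM in input. The cHet values of Pax7 were 1.51, 1.57 and 1.12 FPKM on polysomes, against 2.76, 2.12 and 2.11 FPKM in input. Every polysome library lay below every input library of its genotype. In cHet such a separation was seen downward for 37.2% of tested genes, and the cKO share is not given here. The same background applies to Met, Acta1, Actc1 and Myh3 where their fractions are described as apart. The log2 difference was −0.66 in cKO (limma, SE 0.20, adjusted p = 0.0242) and −0.70 in cHet (SE 0.20, adjusted p = 0.0112). Without cKO polysome replicate 1 the cKO value was −0.77 (adjusted p = 0.0129), without cKO input replicate 3 it was −0.56 (adjusted p = 0.0422), and without both it was −0.67 (adjusted p = 0.0167). The cKO call was lost when replicate 2 of cKO input (adjusted p = 0.0574), replicate 2 of cKO polysomes (0.0553) or replicate 3 of cKO polysomes (0.102) was left out, and without the filter on low values (0.0548). The cHet call was lost without replicate 1 of cHet input (adjusted p = 0.059) or replicate 3 of cHet polysomes (0.0509).

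Lbx1, a homeobox factor of the migrating limb progenitors, did not differ detectably between fractions (ENSMUSG00000025216; mm10 chromosome 19, 45232684 to 45235812, minus strand). On polysomes it had 4.23, 6.41 and 5.44 FPKM in cKO and 7.06, 6.67 and 6.07 FPKM in cHet. In input it had 5.30, 5.07 and 7.19 FPKM in cKO and 7.12, 6.52 and 4.84 FPKM in cHet. The fractions overlapped in both genotypes, and the log2 difference was −0.13 in cKO (95% interval −0.55 to 0.30) and 0.11 in cHet (−0.31 to 0.54).

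Met, the hepatocyte growth factor receptor, is also made by epithelial cells (ENSMUSG00000009376; mm10 chromosome 6, 17463800 to 17573980, plus strand). In cKO it had 3.10, 1.99 and 1.96 FPKM on polysomes, against 4.36, 3.78 and 2.38 FPKM in input. In cHet it had 1.53, 1.74 and 1.67 FPKM on polysomes, against 3.64, 3.35 and 3.80 FPKM in input. The cHet fractions were far apart, while in cKO polysome replicate 1 lay above input replicate 3, and these are the libraries that stood apart. Met fell in cHet by 1.08 on the log2 scale (limma, SE 0.23, adjusted p = 0.00198), and in cKO the value was −0.55 (SE 0.23, adjusted p = 0.0813). With the lysate as a block, cKO passed at an adjusted p of 0.0377. Without cKO polysome replicate 1 the cKO value was −0.76 (adjusted p = 0.0162), without cKO input replicate 3 it was −0.80 (adjusted p = 0.0065), and without both it was −1.01 (adjusted p = 9.64e-05).

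The myogenic regulatory factors are basic helix-loop-helix proteins that bind E boxes, and none of the 3 described here passed between fractions. Myf5, the first of them to be switched on in the embryo, had 3.62, 2.81 and 3.42 FPKM on cKO polysomes, against 2.57, 3.44 and 3.28 FPKM in cKO input (ENSMUSG00000000435; mm10 chromosome 10, 107482908 to 107486134, minus strand). The cHet values of Myf5 were 4.60, 3.53 and 3.51 FPKM on polysomes, against 3.90, 3.58 and 3.52 FPKM in input. The fractions overlapped, with a log2 difference of 0.09 in cKO (95% interval −0.27 to 0.44) and 0.07 in cHet (−0.28 to 0.42).

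Myod1 sets the myoblast fate together with Myf5, whose FPKM stood at 0.0712 to 0.122 of that of Myod1 in the 12 libraries (ENSMUSG00000009471; mm10 chromosome 7, 46376474 to 46379099, plus strand). In cKO it had 50, 35.6 and 32.0 FPKM on polysomes, against 33.7, 35.8 and 46.0 FPKM in input. In cHet it had 37.8, 30.2 and 43.0 FPKM on polysomes, against 44.2, 41.1 and 40.1 FPKM in input. The fractions overlapped in both genotypes, and the log2 difference was 0.01 in cKO (95% interval −0.40 to 0.43) and −0.19 in cHet (−0.61 to 0.23). It passed in cHet under quantile normalization (−0.47, adjusted p = 0.0412).

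Myog, the factor of terminal differentiation, had 85.4, 56.1 and 58.5 FPKM on cKO polysomes, against 55.7, 66.8 and 91.6 FPKM in cKO input (ENSMUSG00000026459; mm10 chromosome 1, 134289989 to 134292548, plus strand). In cHet it had 63.1, 54.6 and 60.0 FPKM on polysomes, against 84.4, 71.5 and 71.8 FPKM in input. The cKO fractions overlapped, while all cHet polysome libraries lay below all cHet input libraries, a separation seen downward for 37.2% of tested genes. The log2 difference was −0.09 in cKO (adjusted p = 0.748) and −0.36 in cHet (SE 0.20, adjusted p = 0.152). The cHet value passed under protein-coding scaling (−0.58, adjusted p = 0.0312), under quantile normalization (−0.71, adjusted p = 0.00932) and without both libraries that stood apart (−0.36, adjusted p = 0.00953).

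Of the 3 genes of the contractile fibre, Acta1 encodes skeletal alpha-actin, the actin of mature skeletal muscle (ENSMUSG00000031972; mm10 chromosome 8, 123891769 to 123894751, minus strand). In cKO it had 54.9, 40.9 and 42.1 FPKM on polysomes, against 76.5, 66.9 and 85.7 FPKM in input. In cHet it had 37.3, 36.5 and 33.5 FPKM on polysomes, against 70.4, 64.3 and 57.9 FPKM in input. The fractions were apart in both genotypes, and Acta1 fell by 0.74 in cKO (limma, SE 0.15, adjusted p = 0.0041) and by 0.84 in cHet (SE 0.15, adjusted p = 0.000844) on the log2 scale. Without cKO polysome replicate 1 the cKO value was −0.87 (adjusted p = 0.000557), without cKO input replicate 3 it was −0.65 (adjusted p = 0.00673), and without both it was −0.78 (adjusted p = 0.000277). In cKO 9.56% of tested genes had a lower value, and in cHet 15.7%.

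Actc1 encodes cardiac alpha-actin, which embryonic skeletal fibres make before Acta1 takes over (ENSMUSG00000068614; mm10 chromosome 2, 114047282 to 114053548, minus strand). In cKO it had 248, 160 and 160 FPKM on polysomes, against 258, 248 and 307 FPKM in input. The cHet values of Actc1 were 158, 147 and 134 FPKM on polysomes, against 276, 235 and 228 FPKM in input. The cHet fractions were well apart, while cKO polysome replicate 1 reached nearly the level of the lowest cKO input library. Actc1 fell by 0.54 in cKO (limma, SE 0.18, adjusted p = 0.0349) and by 0.75 in cHet (SE 0.18, adjusted p = 0.0042) on the log2 scale. The cKO call did not hold when any 1 of several libraries was left out, which were cKO input replicates 1, 2 and 3 (adjusted p = 0.0565, 0.0523 and 0.0752), cHet input replicate 2 (0.0517) and cKO polysome replicates 2 and 3 (0.126 and 0.133). It was also lost without the filter on low values (adjusted p = 0.0924). It held without cKO polysome replicate 1 (−0.76, adjusted p = 0.00127) and without both libraries that stood apart (−0.66, adjusted p = 0.000844).

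Myh3, the embryonic myosin heavy chain and the motor of the first fibres, had the lowest polysome to input difference of the members (ENSMUSG00000020908; mm10 chromosome 11, 67078300 to 67102291, plus strand). In cKO it had 8.96, 6.89 and 7.30 FPKM on polysomes, against 13.8, 16.5 and 12.8 FPKM in input. The cHet values of Myh3 were 7.20, 6.68 and 5.78 FPKM on polysomes, against 18.0, 15.9 and 16.4 FPKM in input. The fractions were far apart in both genotypes. Myh3 fell by 0.89 in cKO (limma, SE 0.15, adjusted p = 0.00156) and by 1.35 in cHet (SE 0.15, adjusted p = 0.000102) on the log2 scale, with 5.74% and 3.75% of tested genes at a lower value in cKO and cHet. Without cKO polysome replicate 1 the cKO value was −1.0 (adjusted p = 0.000383), without cKO input replicate 3 it was −0.97 (adjusted p = 0.000988), and without both it was −1.08 (adjusted p = 8e-05). Of its 50-base stretches 4.81% also occur in other genes, most of them other myosin heavy chains, and for Acta1 the share was 2.22%, so reads from these stretches could be assigned to either gene. Pax3 shared 0.561% and the other 7 members shared none.

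Each polysome library was read with the input library of the same genotype and number as coming from the same lysate. The ratio of polysome to input FPKM was below 1 in 6 of 6 lysates for Pax7, Met, Acta1, Actc1 and Myh3. The share of all tested genes below 1 in all 6 lysates was not counted, so this is a description of these genes only. For Myh3 it was 0.650, 0.417 and 0.569 in the cKO lysates and 0.399, 0.420 and 0.353 in the cHet lysates. For Acta1 it was 0.717, 0.611 and 0.491 in cKO and 0.530, 0.567 and 0.578 in cHet. The cHet lysates lay close together for both genes and the cKO lysates were more spread. For Myod1 the ratio was 1.48, 0.996 and 0.696 in cKO and 0.854, 0.735 and 1.07 in cHet, and for Myog it was 1.53, 0.839 and 0.638 in cKO and 0.747, 0.764 and 0.835 in cHet. The cKO lysate 1, which holds the polysome library that stood apart, had the highest ratio of the 6 for Pax7, Myf5, Myod1, Myog, Acta1, Actc1 and Myh3. The median ratio over all tested genes was 0.991 to 1.08 in the 6 lysates.

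**Figure D3:**
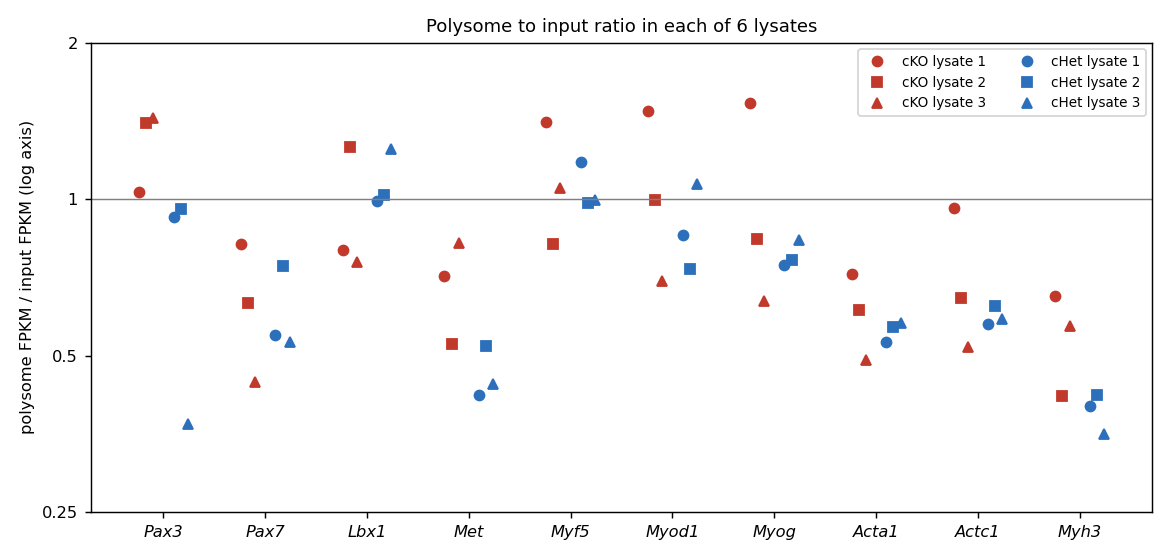
Ratio of polysome to input FPKM for each gene in 3 cKO (red) and 3 cHet (blue) lysates, on a log axis; the line marks a ratio of 1. All 6 lysates lie below 1 for Pax7, Met, Acta1, Actc1 and Myh3, from 0.353 for Myh3 to 0.962 for Actc1, and the lysates lie on both sides of 1 for Pax3, Lbx1, Myf5, Myod1 and Myog. The share of all tested genes below 1 in all 6 was not counted.

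The members that fell on polysomes in cHet also had the longer coding sequences, as a description of 9 genes with no test. In the GENCODE M21 transcripts, Acta1 and Actc1 have 377 codons each, Pax7 has 503, Met has 1379 and Myh3 has 1940. Myog has 224 codons, Myf5 255, Lbx1 282 and Myod1 318. The GC content of the coding sequence was 46.4% to 61.2% in those 5 and 56.8% to 65.8% in these 4, so the ranges overlapped. By the cKO calls the lengths did not split this way, since Met, with 1379 codons, did not pass in cKO.

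Wider lists of muscle genes were described by their counts. The sarcomere and contraction list had 26 of 33 genes tested. On polysomes 5 rose and 10 fell in cKO and 7 rose and 11 fell in cHet, with a median log2 difference of −0.25 in cKO and −0.34 in cHet. Over all tested genes 16.9% rose and 15.6% fell in cKO, and 27.3% rose and 25.9% fell in cHet, so the counts that rose were near these shares. Klhl41, which stabilises nebulin and thin filaments, had 8.79, 7.28 and 7.73 FPKM on cKO polysomes, against 24.6, 18.7 and 21.7 FPKM in cKO input, and fell by 1.43 in cKO (limma, SE 0.14, adjusted p = 0.00014) and by 1.64 in cHet (SE 0.14, adjusted p = 5.2e-05). Des, the muscle intermediate filament desmin, fell by 0.95 in cKO (adjusted p = 0.000867) and by 1.18 in cHet (adjusted p = 0.000117). Actn2, the alpha-actinin of the Z disc, fell by 0.75 in cKO (adjusted p = 0.00275) and by 0.80 in cHet (adjusted p = 0.000798).

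Among the genes that rose was Tnnt1, a subunit of troponin, the calcium switch of the thin filament. It had 78.0, 81.9 and 101 FPKM on cKO polysomes, against 48.2, 48.8 and 59.2 FPKM in cKO input, and rose by 0.74 in cKO (limma, SE 0.16, adjusted p = 0.00588) and by 0.82 in cHet (SE 0.16, adjusted p = 0.00144). The polysome libraries lay above all input libraries in both genotypes. The other genes that rose were Tnnc1, Tnni2, Tnnt2 and the myosin light chain Myl1 in both genotypes, and Smyd1 and Cryab in cHet. The other tested troponin genes did not pass, with Tnnt3 at 0.29 in cKO and 0.32 in cHet and Tnni1 at 0.37 in cKO and 0.26 in cHet. These genes, and the others that passed, are named to complete the counts and were chosen after their values were seen. Those that also fell in both genotypes were Mybph, Unc45b, Klhl40, Tpm2, Myh8 and Actn3, with Ldb3 in cKO and Stac3 and Mybpc1 in cHet. Under protein-coding scaling, which shifts the median of all tested genes to −0.06 in cKO and −0.20 in cHet, 3 rose and 10 fell in cKO and 2 rose and 13 fell in cHet. Leaving out single libraries also moved these counts, to 6 risen and 6 fallen in cKO without cKO polysome replicate 2 and to 3 risen and 5 fallen without cKO polysome replicate 3. In cHet 3 genes rose without cHet input replicate 2, and 2 rose without cHet input replicate 3 or without cHet polysome replicate 1. With a filter of 5 FPKM, 17 genes of the list were tested, of which 5 rose and 5 fell in cKO and 6 rose and 5 fell in cHet.

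**Figure D4:**
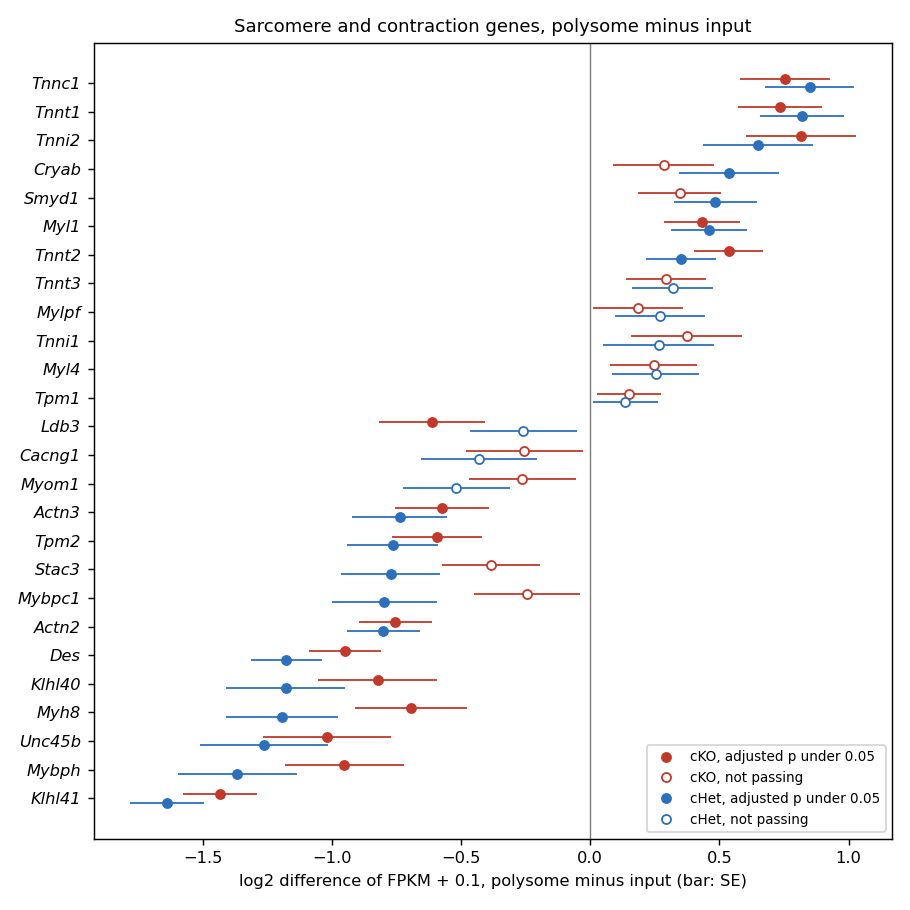
Log2 difference of FPKM + 0.1, polysome minus input, of the 26 tested sarcomere and contraction genes in cKO (red) and cHet (blue) limb buds, with SE bars; filled points passed an adjusted p of 0.05. Klhl41 is lowest, at −1.43 in cKO and −1.64 in cHet, and the genes Tnnc1 and Tnnt1 are among the highest, at 0.75 and 0.74 in cKO and 0.85 and 0.82 in cHet.

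The fusion, adhesion and receptor list had 10 of 11 genes tested, of which 1 rose and 3 fell on polysomes in cKO and 1 rose and 4 fell in cHet. These counts stand beside 16.9% of all tested genes that rose and 15.6% that fell in cKO. In cHet the shares were 27.3% and 25.9%. Mymx, the small membrane protein that fuses myoblasts, had 24.2, 36.2 and 45.1 FPKM on cKO polysomes, against 14.8, 13.8 and 20.9 FPKM in cKO input. It rose by 1.07 in cKO (limma, SE 0.25, adjusted p = 0.00748) and by 1.33 in cHet (SE 0.25, adjusted p = 0.00101). Its partner Mymk did not pass, with −0.15 in cKO and 0.10 in cHet. Ncam1, a neural and muscle adhesion molecule, fell by 0.77 in cKO (adjusted p = 0.00555) and by 1.25 in cHet (adjusted p = 0.000195). Cdh15, the muscle cadherin, fell by 1.00 in cKO (adjusted p = 0.01) and by 1.45 in cHet (adjusted p = 0.000615). Chrng, the fetal subunit of the acetylcholine receptor, fell by 0.61 in cKO (adjusted p = 0.0429) and by 1.07 in cHet (adjusted p = 0.00136). The fourth gene that fell in cHet was the receptor subunit gene Chrnb1.

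The list of cofactors and inhibitors of the myogenic factors had 11 of 12 genes tested, of which 6 rose and 0 fell in cKO and 7 rose and 0 fell in cHet. Of all tested genes, 16.9% rose and 15.6% fell in cKO, and 27.3% rose and 25.9% fell in cHet. None of the tested genes was lower at an unadjusted p under 0.05 in cKO, and in cHet 1 was, Tcf12 at −0.50 (unadjusted p = 0.0378, adjusted p = 0.067). Without cKO input replicate 3, or without both libraries that stood apart, 7 rose and 3 fell in each genotype. Leaving out cKO input replicate 2 or cKO polysome replicate 3 left 3 that rose in cKO, and without cHet polysome replicate 3 there were 5 that rose and 1 that fell in cHet. Id2 and Id3, whose products hold the partners of the myogenic factors in inactive pairs, rose by 0.86 and 0.69 in cKO (limma, adjusted p = 0.00154 and 0.00823) and by 1.12 and 0.87 in cHet (adjusted p = 0.000158 and 0.00104). Twist1, which blocks myogenic factors and is a gene of limb mesenchyme, rose by 0.68 in cKO (adjusted p = 0.0132) and by 1.01 in cHet (adjusted p = 0.000773). Msc, a repressor that binds E boxes, rose by 0.95 in cKO (adjusted p = 0.00587) and by 1.14 in cHet (adjusted p = 0.000962). Id and Twist genes are expressed across the limb mesenchyme, so their levels are not those of muscle cells alone. The limb mesenchyme markers had a summed level of 1020 to 1510 FPKM on cKO polysomes and 1150 to 1200 FPKM on cHet polysomes, against 768 to 1030 FPKM in cKO input and 655 to 737 FPKM in cHet input, with Twist1 counted in that sum.

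The migration and specification list had 12 of 13 genes tested, of which 1 rose and 0 fell in cKO and 2 rose and 1 fell in cHet. Over all tested genes 16.9% rose and 15.6% fell in cKO, and 27.3% rose and 25.9% fell in cHet. The counts of this list were below these shares, so they are not a result about the list. Cxcl12, the chemokine that limb mesenchyme makes for migrating progenitors, rose by 0.67 in cKO (limma, SE 0.20, adjusted p = 0.0247) and by 0.93 in cHet (SE 0.20, adjusted p = 0.00238). In cHet Eya2, a coactivator of homeobox factors, rose by 0.45 (adjusted p = 0.0106) and Gab1, an adaptor of Met signalling, fell by 0.43 (adjusted p = 0.0338). The cKO counts were 3 risen and 1 fallen without cKO input replicate 3, 2 risen and 2 fallen without both libraries that stood apart, and 0 risen without cKO input replicate 1, cKO polysome replicate 2 or cKO polysome replicate 3. The Gab1 call in cHet was lost without cHet input replicate 1, 2 or 3 or cHet polysome replicate 1 or 2.

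Markers of other tissues in the bud were counted in the same way. Of the 6 epidermis markers, 4 fell on polysomes in cKO and 6 in cHet, beside 15.6% and 25.9% of all tested genes in cKO and cHet. Their summed level was 153 to 322 FPKM on cKO polysomes and 111 to 126 FPKM on cHet polysomes, against 310 to 343 FPKM in cKO input and 260 to 262 FPKM in cHet input. Of 7 tested cartilage markers, 4 fell in cKO and 5 in cHet, and of 6 endothelium markers 3 fell in cKO and 4 in cHet. Of 5 tested Schwann cell and neural crest markers 2 fell in each genotype. Of 6 macrophage markers 0 fell in cKO, with 3 of 6 values below 0, and 3 fell in cHet. Acta2, listed as a smooth muscle marker, had 67.0 ± 21.6 FPKM on cKO polysomes and 57.3 ± 5.92 FPKM on cHet polysomes. In input it had 88.0 ± 13.9 FPKM in cKO and 94.1 ± 13.5 FPKM in cHet (SD, n = 3 each). Of the 6 smooth muscle markers, 4 were under 1 FPKM in every library. Tagln, 1 of these 4, averaged 0.328 to 0.353 FPKM across the 4 groups. The cell source of Acta2 was not tested. The part of these cell types in the members' differences was not tested.

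Between genotypes, no member passed the test in polysome or input RNA. The 9 tested members had log2 differences, cKO minus cHet, of −0.31 to 0.46 on polysomes and −0.25 to 0.25 in input. By limma 0 of 9 members and 0 of 12877 tested genes (0%) passed on polysomes, and 0 of 9 members and 0 of 12977 tested genes (0%) passed in input. At an unadjusted p under 0.05 there were 0 members on polysomes beside 2743 genes, or 21.3%, and 0 members in input beside 1943 genes, or 15%. Voom on the recovered reads also called 0 members and 0 of all tested genes in either fraction. The count over all genes moved with single libraries. On polysomes 160 of 12738 genes passed without cKO replicate 1 and 231 of 12704 without cKO replicate 2. Without cHet replicate 1, it was 1 of 12688. In input 326 of 12827 passed without cKO replicate 3 and 47 of 12825 without cKO replicate 2. These were small shares, so the 0 of 9 members in each of these fits is not a result about the members.

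On polysomes 3 of 9 members had cKO libraries that all lay above the cHet libraries, beside 17.9% of tested genes. Met had 3.10, 1.99 and 1.96 FPKM in cKO, against 1.53, 1.74 and 1.67 FPKM in cHet, a log2 difference of 0.46 (limma, 95% interval −0.01 to 0.93, adjusted p = 0.244). Acta1 differed by 0.35 (95% interval −0.02 to 0.72, adjusted p = 0.253) and Actc1 by 0.34 (−0.13 to 0.81, adjusted p = 0.357). Replicate 1 was the highest cKO library for all 3 genes. Without it the differences were 0.25 for Met, 0.22 for Acta1 and 0.13 for Actc1, and those of Myod1 and Myog turned from 0.07 and 0.15 to −0.12 and −0.05. The epidermis markers were also higher on cKO polysomes, with 6 of 6 not overlapping cHet, and none of them passed the test. So were 4 of 5 tested macrophage markers and 4 of 5 tested Schwann cell and neural crest markers. Among tested cartilage markers it was 1 of 6, among limb mesenchyme markers 1 of 8 and among endothelium markers 0 of 6. Replicate 1 was the highest cKO polysome library for every tested epidermis, macrophage, and Schwann cell and neural crest marker. The part of these cells in the values of Met and the actins was not tested.

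In input 1 of 9 members did not overlap between genotypes, beside 29.3% of tested genes. Myf5 had 2.57, 3.44 and 3.28 FPKM in cKO input, against 3.90, 3.58 and 3.52 FPKM in cHet input. All 3 cKO libraries lay below cHet, by a log2 difference of −0.25 (limma, 95% interval −0.62 to 0.12, adjusted p = 0.484). On polysomes, Myf5 overlapped between genotypes and differed by −0.23 (−0.61 to 0.15, adjusted p = 0.436). Acta1 and Actc1 were at 0.25 and 0.14 in input, and Myh3 was at −0.23. The sign of the input value changed for Lbx1, Met and Myog when 1 library was left out, with ranges of −0.23 to 0.04 for Lbx1, −0.25 to 0.17 for Met and −0.31 to 0.05 for Myog.

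**Figure D5:**
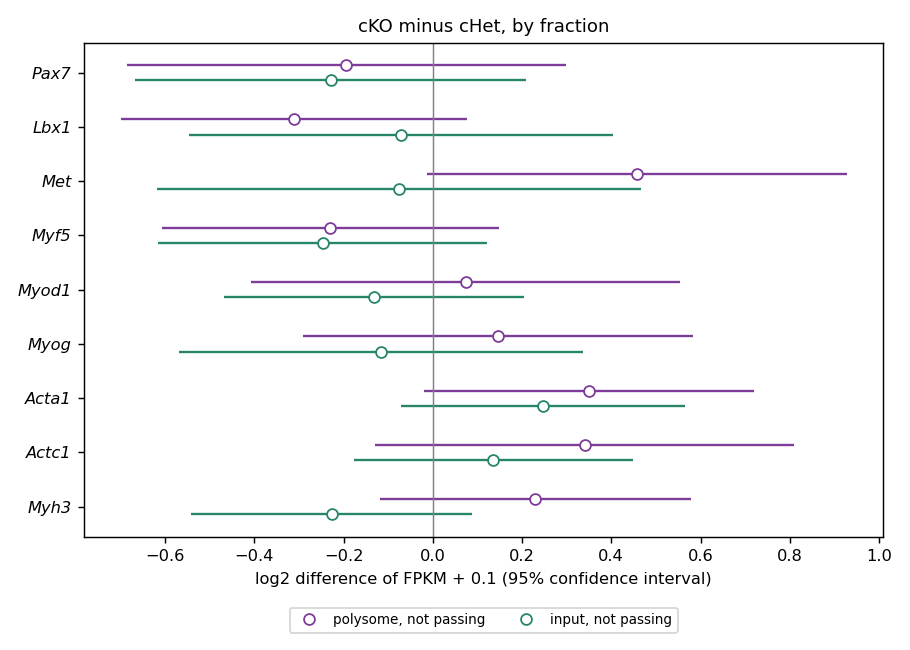
Log2 difference of FPKM + 0.1, cKO minus cHet, of the 9 tested genes on polysomes (purple) and in input (green), with 95% confidence intervals. No gene passed an adjusted p of 0.05 and every interval covers 0, with Met on polysomes the highest at 0.46 and Lbx1 on polysomes the lowest at −0.31.

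The polysome to input difference was itself compared between genotypes as an interaction over all 12 libraries. By limma 0 of 9 members and 0 of 13610 tested genes (0%) passed, and 1 member, Myh3, had an unadjusted p under 0.05, beside 638 genes or 4.69%. Myh3 was lower on polysomes by 0.89 in cKO and by 1.35 in cHet, a difference between genotypes of 0.46 (95% interval 0.00 to 0.91, unadjusted p = 0.0492, adjusted p = 0.79). Met had an interaction of 0.53 (−0.16 to 1.23, adjusted p = 0.79), and without both libraries that stood apart it was 0.07. For Myh3 it was then 0.27 (adjusted p = 0.818). Voom called 0 members and 0 of all tested genes. At this number of libraries, differences as small as these could not be told from the spread.

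None of the 4 wider muscle lists had a gene that passed between genotypes in either fraction or in the interaction. Before adjustment, 6 of 54 tested genes of the 4 lists had p under 0.05 on polysomes (11.1%), beside 21.3% of all tested genes. In input it was 5 of 59 (8.47%), beside 15%, and in the interaction 0 of 59, beside 4.69%. Voom called 0 of all tested genes in each fraction and in the interaction. Those described here are among the 4 of their list with the smallest p. On polysomes Cxcl12 had 16.2, 26.9 and 25.5 FPKM in cKO, against 44.0, 40.1 and 36.2 FPKM in cHet, a log2 difference of −0.84 (limma, SE 0.21, adjusted p = 0.113), and in input it differed by −0.57 (SE 0.17, adjusted p = 0.215). All cKO libraries lay below all cHet libraries in both fractions. Klhl41 on polysomes differed by 0.48 (adjusted p = 0.13) and Chrng by 0.52 (adjusted p = 0.143), both with cKO above cHet. Tpm1, the alpha-tropomyosin gene, differed by −0.36 on polysomes (adjusted p = 0.198) and by −0.37 in input (adjusted p = 0.24), with cKO below cHet in both.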

How the data were processed

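RNA from 12 samples, 3 in each of 4 groups, was analysed from a deposited table in which the authors gave FPKM, read fragments scaled by gene length and by depth. HISAT2 2.0.5, featureCounts 1.5.0-p3 and mm10 are named in the submitters' processing notes, while strandedness and the removal of ribosomal RNA are not given in the sources used here. Per the labels' protocols, the Quick RNA Microprep and NEBNext Ultra II kits were used. FPKM times gene length gave whole reads within 0.01 for 100% of values above 0, which gives the depth.

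The log2(FPKM + 0.1) values were fitted by limma-trend (limma 3.58.1, R 4.3.3). Genotypes were compared within a fraction on 6 libraries, and polysome with input and the interaction on all 12. Genes needed 1 FPKM in at least 3 fitted libraries. p-values are two-sided and were adjusted over all genes tested. The fold changes understate the change of low genes.

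The members and lists were chosen with earlier results of these data known. All members are named, and up to 4 genes of a list with the smallest p per comparison. Input and polysome libraries of a genotype and number were read as 1 lysate, from the design. Pearson correlations, across genes, of how the pair deviated from its group means were 0.0525, 0.231 and 0.104 in cKO and 0.145, 0.125 and 0.249 in cHet. Gene models came from GENCODE M21, and promoters from RefSeq. Alternatives were other pseudocounts, filters and scalings, voom on recovered reads, robust empirical Bayes, a replicate block and leaving out libraries. The limma fits were tested on simulated data.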

Additional observations from a re-analysis of the deposited data

How the results depend on the processing

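Over all settings tried, Acta1 and Myh3 passed as lower on polysomes in both genotypes and Actc1 in cHet, as did Met in cHet in all but the filter of 5 FPKM, where it was not tested, and no call between fractions changed direction. The count of members called was 0 under all settings for both genotype comparisons and the interaction. Of the 9 members, 4 were called between cKO fractions, 2 without the filter on low values, and 2 to 5 with libraries left out, and 5 were called between cHet fractions, 3 with a filter of 5 FPKM (6 members tested), 6 under protein-coding scaling, 7 under quantile normalization, and 4 to 6 with libraries left out. Over all genes, the 0 called between genotypes in input became 82 when fitted over all 12 libraries and ranged from 0 to 326 with libraries left out, and the 0 called on polysomes became 184 over 12 libraries and ranged from 0 to 231. Between cKO fractions 4424 genes were called, 2441 to 8012 with libraries left out, the lowest without cKO polysome replicate 3 and the highest without both libraries that stood apart, a setting chosen after seeing the data. Between cHet fractions 7242 were called, 5722 to 9658 with libraries left out. The 0 interaction calls became 1 with a pseudocount of 0.01 and 7 without the filter. Where fewer libraries or genes enter a fit, its counts differ by construction, and otherwise the cause was not tested. The cKO and cHet libraries of a fraction share only a number, with correlations of deviations of −0.0823, 0.165 and −0.281 on polysomes and −0.0455, −0.0931 and −0.0371 in input. That replicate block gave 42 calls on polysomes and 0 in input. With the lysate as replicate block, no call of a member between fractions changed other than that of Met in cKO. Depth limits Pax3, at 15 to 71 reads per library.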

Other observations

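Ratios between members within a library do not depend on how the library was scaled. Actc1 stood at 4.96, 4.49 and 4.99 times Myod1 on cKO polysomes and 4.19, 4.85 and 3.13 times on cHet polysomes, against 7.65, 6.94 and 6.67 times in cKO input and 6.24, 5.73 and 5.69 times in cHet input. The polysome and input libraries did not overlap in either genotype. In input all cKO libraries lay above all cHet libraries, where 29.3% of single tested genes did not overlap between genotypes. The share of other ratios that separate was not counted. Neither Actc1 nor Myod1 passed between genotypes in input (limma, adjusted p = 0.617 and 0.654). Myh3 over Myod1 was 0.179 to 0.228 on cKO polysomes and 0.134 to 0.221 on cHet polysomes, against 0.279 to 0.462 in cKO input and 0.387 to 0.409 in cHet input. Myog over Myod1 averaged 1.70 ± 0.128 on cKO polysomes and 1.63 ± 0.210 on cHet polysomes, against 1.84 ± 0.172 in cKO input and 1.81 ± 0.0867 in cHet input (SD, n = 3 each). Actc1 over Acta1 averaged 4.07 ± 0.391 and 4.09 ± 0.131 on cKO and cHet polysomes, against 3.55 ± 0.173 and 3.84 ± 0.154 in cKO and cHet input. With 3 libraries against 3, an exact permutation test cannot go below p = 0.1, and none is given for these ratios, which were chosen with the values known.

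The genes whose profile over the 12 libraries came closest to the mean profile of the 9 tested members were Otud7b, Nfx1, Ctnnd1, Slx4, Wdr33, Cenpt, Drosha and Zscan21. Their root-mean-square difference from it was 0.0910 for Otud7b to 0.106 for Zscan21 on the log2 scale, among 11888 protein-coding genes with a median of 0.441. None of the 8 is on a muscle list. The 8 genes were picked for this closeness. The members lay at 0.163 for Actc1 to 0.359 for Lbx1 from their own mean.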
